A study of Homo sapiens with 10 samples.

Results

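KYSE-410 and KYSE-30 are established cell lines of human esophageal squamous cell carcinoma, and their transcriptomes were compared as they stood with a control siRNA. The comparison holds 5 of the 10 libraries of the series: 3 of KYSE-410 and 2 of KYSE-30, each transfected with siCT, which targets no gene. The other 5 libraries (3 and 2) received siSHIP2, an siRNA against INPPL1, and served as a second look at the same line difference. All cells were harvested at 48 h, so every library carries the transfection itself. Each line stands for 1 carcinoma, and no label tells if its numbered replicates came from different cultures. The p-values therefore measure the spread between these samples, and whatever separated the preparation of the lines cannot be told apart from the lines. All 19518 genes with at least 0.5 CPM, counts per 1 M counts, in 2 of the 5 libraries were tested, out of 58302 in the deposited table.

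As background, the squamous epithelium of the esophagus renews itself from a basal layer that anchors to laminin and collagen through integrins and expresses keratins 5 and 14 under the transcription factors TP63 and SOX2. Cells that leave this layer stop dividing and build a cornified envelope from involucrin and small proline-rich proteins. Squamous carcinomas keep parts of this programme to different degrees, may take on simple-epithelial or mesenchymal genes, and often depend on receptor tyrosine kinases and on the oxidative-stress factor NRF2.

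The lines were far apart and the replicates close. The first principal component of log2(CPM + 1) split the lines from each other and took up 97.5% of the variance. Pearson's r over tested genes was 0.997 to 0.998 within a line and 0.881 to 0.885 between lines. Limma with Benjamini-Hochberg adjustment called 15301 genes, 78.4% of those tested. Of all tested genes 7516 (38.5%) were called as higher in KYSE-410 and 7785 (39.9%) as higher in KYSE-30. The libraries of the lines did not overlap for 16360 genes (83.8%), and a test against a 1.5-fold difference called 6208 (31.8%). Because most genes passed, the counts below use genes that were also at least 2-fold apart: 2486 higher in KYSE-410 (12.7% of tested genes) and 2194 higher in KYSE-30 (11.2%). These percentages are the background against which each gene group is read, and the median log2 difference of all tested genes was -0.02. Log2 differences were taken after adding 1 to each CPM, so those of low genes are understated, and positive values are higher in KYSE-410. INPPL1 itself, which encodes the phosphoinositide phosphatase SHIP2, stood at 107, 108 and 109 CPM in KYSE-410 and 39.9 and 36.2 CPM in KYSE-30 with siCT (log2 difference 1.48, SE 0.0557, limma adjusted p = 3.65e-09). With siSHIP2 it stood at 44.7, 37.3 and 39.1 CPM in KYSE-410 and 23.2 and 24.5 CPM in KYSE-30, below the siCT libraries of the same line in each case.

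**Figure D1:**
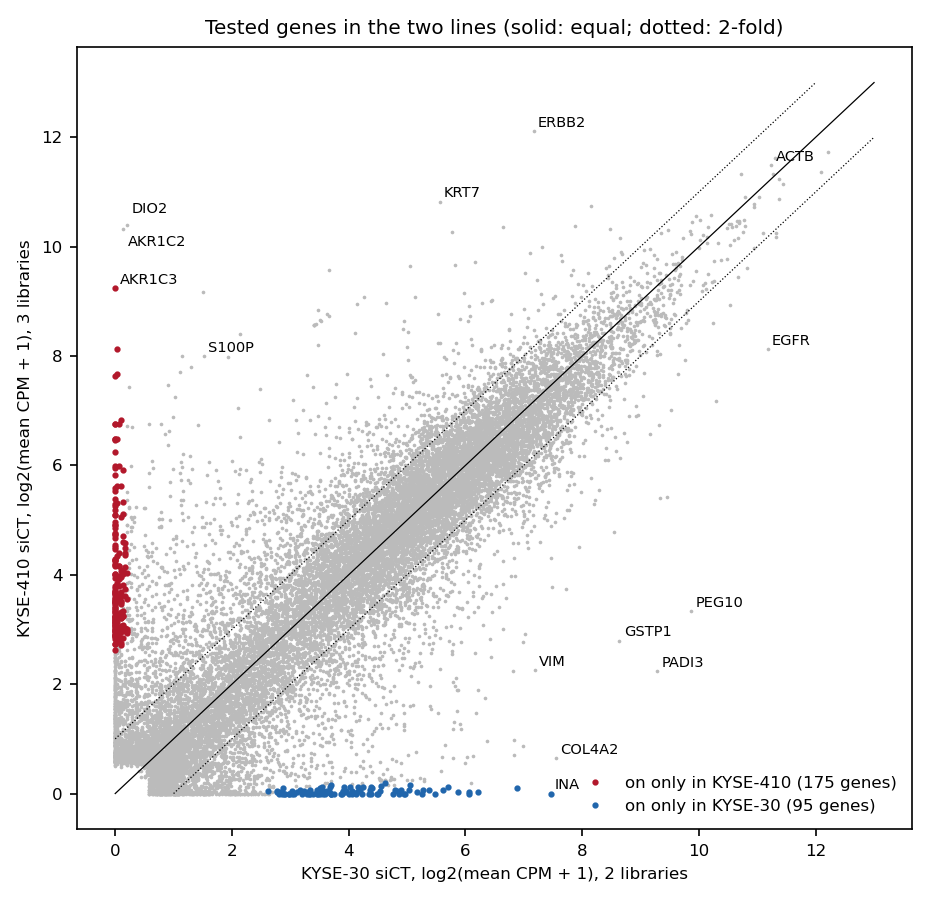
Mean level of each tested gene in KYSE-30 (x axis) and KYSE-410 (y axis) with siCT, as log2(mean CPM + 1); the solid line marks equal levels and the dotted lines 2-fold differences. The 175 genes on only in KYSE-410 (red) run up the left edge and the 95 on only in KYSE-30 (blue) along the bottom, while ERBB2 and EGFR stand on opposite sides at high levels.

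Some genes were on in one line and silent in the other. A gene was called on where every library of the line held at least 5 CPM, and off where no library of the other line held more than 3 scaled counts (about 0.15 CPM). By this rule 175 genes were on only in KYSE-410 and 95 only in KYSE-30, and 96 and 40 of them were at 0 in every library of the silent line. Of these, 140 and 79 were protein-coding. The siSHIP2 libraries met the same rule for 127 of the 175 and 79 of the 95, and in them the libraries of the lines did not overlap for any of the 270 genes, in the same direction as with siCT. Without any single library, 178 to 202 genes were on only in KYSE-410 and 99 to 104 only in KYSE-30.

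The most abundant silenced gene of KYSE-30 was AKR1C3, an aldo-keto reductase that converts steroids and prostaglandins, at 599, 581 and 634 CPM in KYSE-410 and 0 and 0 CPM in KYSE-30. Its level in KYSE-410 was at least 4033-fold higher than 3 counts per library would give in KYSE-30. ANXA10, an annexin known from gastric epithelium, had 279, 273 and 286 CPM in KYSE-410 and 0 and 0.05 CPM in KYSE-30. LAMA4, a laminin chain of vessel and muscle basement membranes, had 201, 212 and 197 CPM in KYSE-410 and 0 and 0.05 CPM in KYSE-30. PNMA5, of a family of retrotransposon-derived genes, was at 197 against 0 CPM, and LUZP2, a leucine zipper gene of the nervous system, at 113 against 0.075 CPM. SNRPN and SNURF, which share an imprinted transcript and are not independent readings of it, were at 107 against 0 CPM and 88.9 against 0 CPM. LUM, the fibroblast and corneal matrix proteoglycan lumican, was at 107 against 0 CPM. WFDC2, a secreted protease-inhibitor-like protein of glandular epithelia, was at 107 against 0.05 CPM, and MX2, an interferon-induced restriction factor, at 88.4 against 0.025 CPM. The T cell receptor constant segment TRBC2 (88.5 against 0 CPM) was also among the 12 most abundant. The rule itself requires all of these to be at or near 0 in both KYSE-30 libraries. In the 3 KYSE-410 libraries they lay within a narrow range.

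On the other side, INA, a neuronal intermediate filament protein, had 0, 0 and 0 CPM in KYSE-410 and 173 and 177 CPM in KYSE-30. PEBP1, an inhibitor of the RAF kinase, had 0.05, 0.1 and 0.05 CPM in KYSE-410 and 115 and 119 CPM in KYSE-30. CPPED1, a phosphatase, stood at 0.0167 against 72.9 CPM, the melanosome-transport adaptor MLPH at 0.0167 against 65.8 CPM, and the calcium-binding protein CALB2 (calretinin) at 0 against 65.7 CPM. Guanine deaminase (GDA) was at 0.0167 against 57.4 CPM, the neurofilament NEFH at 0.05 against 40.6 CPM, the potassium channel gene KCNMA1 at 0.05 against 37.6 CPM, and the cancer-testis gene MAGEB2 at 0 against 43.7 CPM. USP32P1 (0.05 against 48 CPM) and PSPHP1 (0 against 37 CPM) are pseudogenes, whose reads may be shared with their parent genes. As the rule requires, each was at 0 or within 3 counts in all KYSE-410 libraries.

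Further genes of this kind from the gene groups described later were TBX3 (37.1 against 0 CPM), SMARCA2 (38.3 against 0 CPM), CA12 (47.2 against 0 CPM), TFF2 (15.2 against 0 CPM) and CSTA (15 against 0 CPM), all on only in KYSE-410. IVL (0 against 29.7 CPM), SPRR1B (0 against 16.5 CPM), SPRR3 (0 against 7.39 CPM), LMX1B (0 against 19.8 CPM), TP73 (0.0167 against 10.9 CPM), COL13A1 (0 against 8.74 CPM) and BMP7 (0.0167 against 9.99 CPM) were on only in KYSE-30.

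The promoters of the genes on in one line and silent in the other were described by their content of CpG, the dinucleotide that cytosine methylation acts on. A window of 300 bases, from 250 before to 50 after the start of each gene (RefSeq, GRCh38.p14), was called CpG-rich at a GC content of at least 50% and a CpG observed-to-expected ratio of at least 0.6. Windows were held for 88 of the 140 protein-coding genes on only in KYSE-410, and 49 of them (55.7%) were CpG-rich. For the genes on only in KYSE-30 it was 34 of 57 (59.6%), and for all protein-coding genes tested 8331 of 10698 (77.9%). Genes called at 2-fold or more lay between, at 66.5% when higher in KYSE-410 and 70.7% when higher in KYSE-30. These shares are descriptions with no test, and DNA methylation was not measured. The windows with the highest and the lowest CpG ratio among the 12 most abundant genes of each direction are printed below to show this range, 5′ to 3′ on the strand of the gene, with CpG in capitals. In KYSE-410, LUZP2 (chr11:24496803-24497102, plus strand) has 38 CpG and a ratio of 1.02, and AKR1C3 (chr10:5048531-5048830, plus strand) has 0 CpG and a GC content of 33.7%. In KYSE-30, KCNMA1 (chr10:77637759-77638058, minus strand) has 54 CpG and a ratio of 0.98, and GDA (chr9:72149190-72149489, plus strand) has 17 CpG and a ratio of 0.62.
LUZP2: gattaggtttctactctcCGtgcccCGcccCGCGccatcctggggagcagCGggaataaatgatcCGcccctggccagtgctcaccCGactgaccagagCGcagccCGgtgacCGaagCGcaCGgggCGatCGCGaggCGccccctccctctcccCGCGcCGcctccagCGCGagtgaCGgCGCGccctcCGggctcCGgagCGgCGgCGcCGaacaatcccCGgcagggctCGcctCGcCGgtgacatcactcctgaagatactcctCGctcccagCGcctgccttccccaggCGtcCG
AKR1C3: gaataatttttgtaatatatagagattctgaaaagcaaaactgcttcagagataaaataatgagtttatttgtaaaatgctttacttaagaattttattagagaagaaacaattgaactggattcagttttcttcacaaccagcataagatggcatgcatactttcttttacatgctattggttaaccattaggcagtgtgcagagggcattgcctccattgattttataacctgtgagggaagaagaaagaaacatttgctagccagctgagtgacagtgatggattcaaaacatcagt
KCNMA1: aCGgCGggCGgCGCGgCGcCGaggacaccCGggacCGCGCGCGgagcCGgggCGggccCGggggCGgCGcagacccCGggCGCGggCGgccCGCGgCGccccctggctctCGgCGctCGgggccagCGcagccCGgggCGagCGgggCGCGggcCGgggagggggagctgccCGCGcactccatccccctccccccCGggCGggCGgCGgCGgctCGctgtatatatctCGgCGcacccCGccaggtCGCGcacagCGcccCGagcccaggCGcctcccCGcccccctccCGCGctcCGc
GDA: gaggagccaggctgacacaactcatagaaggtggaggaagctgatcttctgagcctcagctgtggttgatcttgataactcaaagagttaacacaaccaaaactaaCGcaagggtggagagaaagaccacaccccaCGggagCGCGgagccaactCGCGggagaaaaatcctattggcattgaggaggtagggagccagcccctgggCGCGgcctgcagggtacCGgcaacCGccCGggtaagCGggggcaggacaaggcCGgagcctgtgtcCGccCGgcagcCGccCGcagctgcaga
The LUZP2 and KCNMA1 windows are dense in CpG along their length, GDA carries its CpG mostly in the part nearest the start, and AKR1C3 has none. All 4 genes were chosen as silent in one line and abundant in the other.

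The squamous identity of the lines was uneven. TP63, the master factor of squamous epithelium, was present in both, at 89.4, 95.6 and 86.5 CPM in KYSE-410 and 51.4 and 41 CPM in KYSE-30 (log2 difference 0.96, SE 0.0865, limma adjusted p = 2.67e-06). SOX2, its partner in squamous carcinoma, was low, at 1.1, 0.849 and 1.3 CPM in KYSE-410 and 7.19 and 5.2 CPM in KYSE-30 (log2 difference -1.78, SE 0.147, limma adjusted p = 1.41e-06). Among 25 listed squamous transcription factors, all of them tested, 9 were at least 2-fold higher in KYSE-410 and 7 in KYSE-30. The T-box repressor TBX3 had 35.8, 38.9 and 36.6 CPM in KYSE-410 and 0 and 0 CPM in KYSE-30, and was the factor with the largest difference. Also higher in KYSE-410 were PITX1 (36.1 ± 2.55 against 4.9 ± 0.211 CPM), the epithelial ETS factor EHF (88.2 ± 5.26 against 15.6 ± 1.91 CPM), SIM2 (26.7 ± 0.425 against 5.9 ± 0.495 CPM) and KLF5 (182 ± 10.7 against 51.3 ± 6.46 CPM), a regulator of proliferating squamous and glandular epithelium; here and below such pairs are means ± SD of KYSE-410 (n = 3) and KYSE-30 (n = 2). Higher in KYSE-30 were SOX15 (0.849 ± 0.0495 against 49.2 ± 3.33 CPM), BARX2 (0.317 ± 0.115 against 20 ± 0.705 CPM), KLF4 (11.2 ± 0.379 against 44.3 ± 2.4 CPM), which drives terminal differentiation, and the AP-1 subunit FOSL1 (71.3 ± 7.34 against 244 ± 40.7 CPM). No factor just named overlapped between the lines, which also held for 83.8% of all tested genes.

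Of 20 genes of basal squamous cells, 7 were at least 2-fold higher in KYSE-410 and 8 in KYSE-30. The basal keratin pair was low in both lines: KRT5 had 14.2, 13.7 and 12.2 CPM in KYSE-410 and 0.1 and 0.3 CPM in KYSE-30, and KRT14 had 0.75, 0.5 and 0.5 CPM in KYSE-410 and 4.9 and 5.15 CPM in KYSE-30. KRT17, a keratin of stressed and basal epithelium, had 97.5, 97 and 90.1 CPM in KYSE-410 and 0.899 and 0.7 CPM in KYSE-30 (log2 difference 5.74, SE 0.0813, limma adjusted p = 7.21e-12). Reads of KRT17 can be shared with near-identical keratins and pseudogenes, so its level is uncertain. COL7A1, the anchoring fibril collagen under the basal layer, had 419.9, 398 and 490.5 CPM in KYSE-410 and 11.7 and 11.1 CPM in KYSE-30, and TRIM29, a basal-cell ubiquitin ligase, 151 against 12.5 CPM. COL17A1, a hemidesmosomal collagen, went the other way, at 13.9, 12.4 and 11.5 CPM in KYSE-410 and 194 and 163 CPM in KYSE-30. CDH3 (P-cadherin, 118 against 445 CPM), ITGB4 (242 against 868 CPM) and ITGA6 (343 against 727 CPM), the integrin pair of the hemidesmosome, were likewise higher in KYSE-30. The anchoring fibril gene was thus higher in KYSE-410 and COL17A1, ITGB4 and ITGA6 in KYSE-30.

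Differentiation genes differed in both directions. Of 49 listed genes, 30 were tested and 10 were at the floor in all 5 libraries; 7 were at least 2-fold higher in KYSE-410 and 13 in KYSE-30. Of the envelope genes, involucrin (IVL) had 0, 0 and 0 CPM in KYSE-410 and 27.7 and 31.7 CPM in KYSE-30, and the small proline-rich SPRR1B had 0, 0 and 0 CPM in KYSE-410 and 15.6 and 17.4 CPM in KYSE-30. Envoplakin (EVPL, 75.2 against 88.1 CPM) and periplakin (PPL, 182 against 280.4 CPM), which also enter the envelope, were abundant in both lines and less than 2-fold apart. The desquamation protease KLK5 had 0.45, 0.55 and 0.75 CPM in KYSE-410 and 63.6 and 65.3 CPM in KYSE-30, and ECM1, a secreted skin matrix protein, had 0.999 against 19 CPM. Higher in KYSE-410 were the calmodulin-like CALML5 (28.2, 29.7 and 29.8 CPM in KYSE-410 and 0.2 and 0.1 CPM in KYSE-30) and CALML3 (26.4 against 0.15 CPM) and the cystatin CSTA (15 against 0 CPM), an envelope precursor, all products of suprabasal cells. The kallikreins KLK6 (143 against 69.3 CPM), KLK10 (13.1 against 1.7 CPM) and KLK8 (3.58 against 0.15 CPM) were also higher there.

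Keratins of simple epithelium outweighed the squamous ones. Per kilobase of exon, KRT7 led in KYSE-410 at 442.3 CPM per kb (434 to 457 over libraries), followed by KRT19 at 287, KRT18 at 216 and KRT8 at 168. In KYSE-30 the order was KRT18 at 508, KRT8 at 372, KRT19 at 339 and KRT80 at 100.5, where the ranges of KRT8 and KRT19 over the 2 libraries overlapped. KRT7 took 35.0% of the summed keratin level per kb in KYSE-410 and 0.816% in KYSE-30. On the CPM scale KRT7 had 1871, 1775 and 1784 CPM in KYSE-410 and 48.1 and 44.3 CPM in KYSE-30 (log2 difference 5.26, SE 0.0509, limma adjusted p = 6.84e-13). KRT8 (1154 ± 25.2 against 2560.3 ± 142 CPM) and its partner KRT18 (696 ± 12.6 against 1633 ± 24.1 CPM) were higher in KYSE-30. Of the squamous keratins, KRT13 stood at 31.7 CPM per kb in KYSE-410 and 24.5 in KYSE-30, with overlapping ranges, KRT17 at 30.3 and 0.255, and KRT10 at 16.1 and 8.97. KRT5, KRT14, KRT15, KRT16 and KRT6A were each under 7 CPM per kb in both lines.

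Glandular genes appeared in small sets. Of 30 listed, 16 were tested; 6 were at least 2-fold higher in KYSE-410 and 4 in KYSE-30. FOXA1, a pioneer factor of glandular epithelia, had 102, 105 and 108 CPM in KYSE-410 and 1.9 and 1.45 CPM in KYSE-30 (log2 difference 5.32, SE 0.0832, limma adjusted p = 1.28e-11). The trefoil peptide genes TFF1 (6.46 against 0 CPM) and TFF2 (15.2 against 0 CPM), the tetraspanin TSPAN8 (15.8 against 0.1 CPM) and GATA6 (24.6 ± 0.202 against 6.1 ± 0.777 CPM), an endodermal factor, were also higher in KYSE-410. In KYSE-30 the adhesion molecule CEACAM6 (0.367 against 24.3 CPM), MUC1 (1.25 against 6.1 CPM) and GATA4 (0 against 5.12 CPM) were higher. CDX2, an intestinal factor, stood at 0 against 0.874 CPM. AGR2, the most abundant gene of the list in both lines (133.8 against 145 CPM), and VIL1 (13.3 against 12.1 CPM) did not pass the test.

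Epithelial adhesion was kept in both lines. CDH1 (E-cadherin) had 762, 819 and 787 CPM in KYSE-410 and 532 and 489 CPM in KYSE-30 (log2 difference 0.63, SE 0.0534, limma adjusted p = 1.74e-06), and EPCAM had 233, 232 and 234 CPM in KYSE-410 and 299 and 292 CPM in KYSE-30. Of 41 tested adhesion genes, 6 were at least 2-fold higher in KYSE-410, among them beta-catenin (CTNNB1, 638 ± 6.11 against 242 ± 0.448 CPM), NECTIN1 (302 ± 11 against 126 ± 17.1 CPM) and the connexin GJB6 (19.9 ± 2.1 against 3.05 ± 1.06 CPM). Another 8 were higher in KYSE-30, among them the membrane protease PRSS8 (6.56 ± 0.465 against 128 ± 23.7 CPM), the desmosomal cadherin DSG3 (5.71 ± 0.682 against 42.7 ± 8.86 CPM) and cingulin (CGN, 48.9 against 219 CPM). In both directions together, 34.1% of the tested adhesion genes were at 2-fold or more, against 24.0% of all tested genes. CDH1 differed by less than 2-fold, and its line difference was -0.10 (log2) in the siSHIP2 libraries.

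Mesenchymal genes were split between the lines rather than gathered in one. Of 22 tested of 27, 8 were at least 2-fold higher in KYSE-410 and 5 in KYSE-30. Vimentin (VIM), the intermediate filament of mesenchymal cells, had 2.95, 4.2 and 4.25 CPM in KYSE-410 and 121 and 169 CPM in KYSE-30 (log2 difference -4.92, SE 0.154, limma adjusted p = 1.02e-09). The receptor kinase AXL had 50.7, 39 and 35.8 CPM in KYSE-410 and 642 and 765 CPM in KYSE-30, the ecto-nucleotidase NT5E (CD73) 135 against 484 CPM, and TWIST2, a repressor of epithelial genes, 0 against 3.2 CPM. In the opposite direction N-cadherin (CDH2) had 116, 121 and 101 CPM in KYSE-410 and 6.39 and 8.64 CPM in KYSE-30, and fibronectin (FN1) had 252, 284 and 252 CPM in KYSE-410 and 27.1 and 19.2 CPM in KYSE-30. The collagenase-family protease MMP2 (169 ± 15.3 against 26.6 ± 1.49 CPM), the cross-linker LOX (13.3 ± 0.606 against 0.949 ± 0.0707 CPM) and WNT5A (4.03 against 0 CPM) were also higher in KYSE-410. The listed regulator SNAI2, more abundant than TWIST2 in both lines, was higher in KYSE-410 too (60.5 against 27.8 CPM, log2 difference 1.11). ZEB1, a master repressor of E-cadherin, was near the filter in both, at 1.5, 1.4 and 1.2 CPM in KYSE-410 and 2.1 and 3.15 CPM in KYSE-30. No single line held vimentin, N-cadherin and fibronectin together at a high level.

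Markers of other cell types were summed for each line. Fibroblast genes summed to 107 to 130 CPM in KYSE-410 and 8.24 to 9.49 in KYSE-30, of which LUM made up 107 CPM, while 2 of the 10 were at the floor in KYSE-410 and 5 in KYSE-30. Blood-cell genes summed to 66.1 to 70.4 CPM in KYSE-410, mostly LAPTM5 (55.3 against 1.97 CPM), a lysosomal protein of leukocytes. They summed to 39.0 to 40.2 CPM in KYSE-30, mostly CD68 (13.1 against 19.1 CPM) and the macrophage receptor CSF1R (0.133 against 17.7 CPM). For each line 8 of the 12 blood markers were at the floor. Endothelial genes summed to 5.20 to 6.25 CPM in KYSE-410, with 4 of 9 at the floor, and the difference rested on 1 gene, CDH5, at 0.15 against 4.22 CPM. Neural genes summed to 84.0 to 89.6 CPM in KYSE-410 and 117.6 to 127 in KYSE-30, with 8 and 11 of 16 at the floor. The largest parts were the tubulin TUBB3 (40.3 against 85 CPM) and MAP2 (37.7 against 25.5 CPM). MAP2 and GAP43 (4.31 against 0 CPM) were higher in KYSE-410. Melanocyte genes summed to 53.6 to 56.0 CPM in KYSE-410 and 54.8 to 56.7 in KYSE-30, and PMEL (29.3 against 34.2 CPM) was the largest part. TYRP1 (12 against 0 CPM) was higher in KYSE-410 and MITF (13.2 against 20.8 CPM) in KYSE-30. The part of such cells in the results was not tested.

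**Figure D2:**
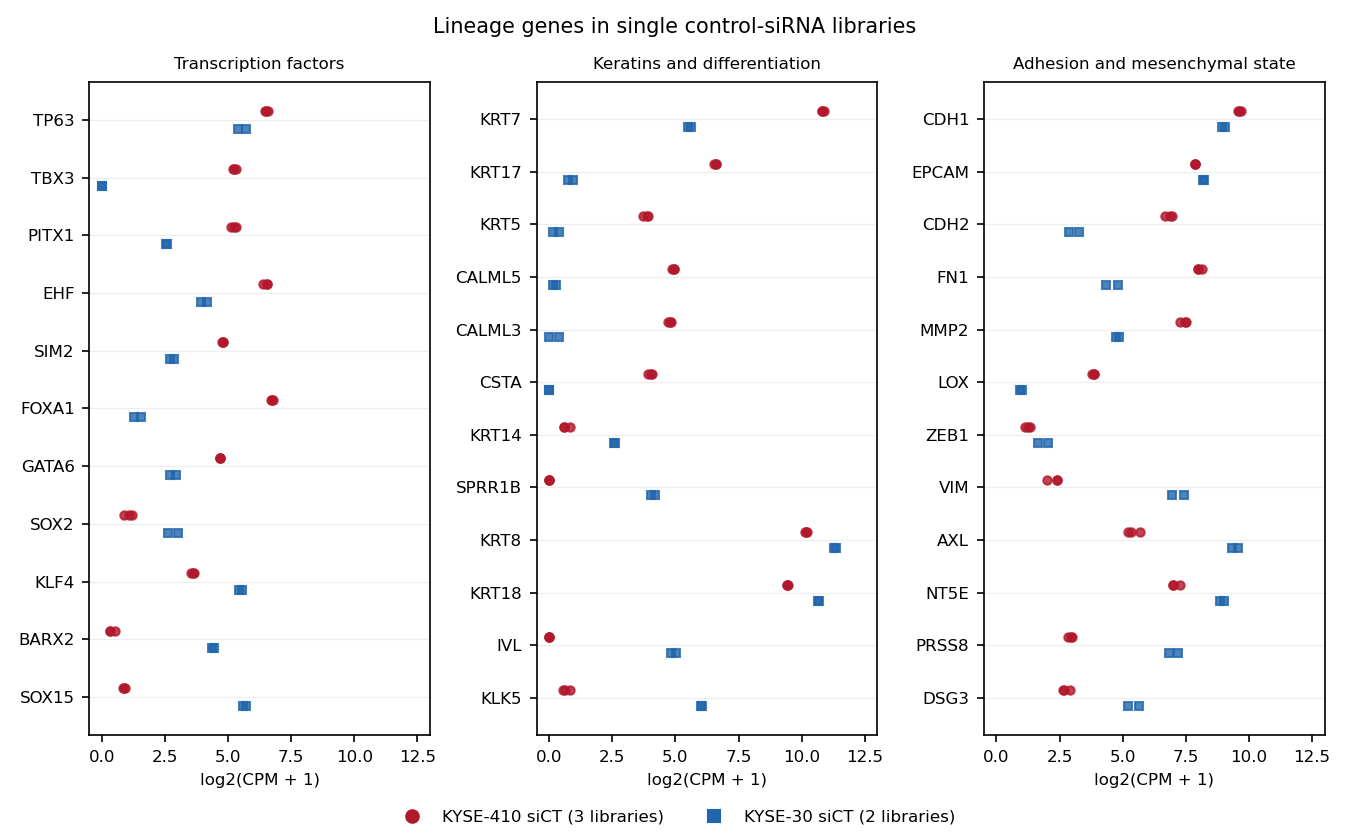
Level of lineage genes as log2(CPM + 1) in each siCT library: circles are the 3 KYSE-410 libraries and squares the 2 KYSE-30 libraries. TBX3, KRT7, KRT17, the CALML genes, CDH2 and FN1 lie to the right in KYSE-410, and SOX15, IVL, KLK5, VIM and AXL in KYSE-30, while TP63, CDH1 and EPCAM lie close together.

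Receptor tyrosine kinases differed in both directions. Of 54 listed, 37 were tested and 7 were at least 2-fold higher in each direction, but the most abundant differed by line. ERBB2 (chr17:39687914-39730426, plus strand, GRCh38), the receptor that pairs with other ERBB members, had 4393, 4381 and 4447 CPM in KYSE-410 and 159.9 and 126 CPM in KYSE-30 (log2 difference 4.95, SE 0.0834, limma adjusted p = 2.22e-11). EGFR (chr7:55019021-55211628, plus strand), the receptor of EGF and amphiregulin, had 277, 301 and 261 CPM in KYSE-410 and 2350.3 and 2291 CPM in KYSE-30 (log2 difference -3.05, SE 0.0605, limma adjusted p = 5.73e-11). ERBB2 was 30.9-fold higher in KYSE-410 and EGFR 8.29-fold higher in KYSE-30 by mean CPM, and neither overlapped. ERBB3, the partner that signals to PI3K, had 94.5, 103 and 105 CPM in KYSE-410 and 118 and 96.4 CPM in KYSE-30 and did not pass the test (log2 difference -0.08, SE 0.081, limma adjusted p = 0.372). MET, the receptor of HGF, had 289.5, 296 and 264 CPM in KYSE-410 and 216 and 232 CPM in KYSE-30 (log2 difference 0.34, SE 0.0585, limma adjusted p = 0.000366). EPHB6 (131 ± 2.25 against 3.3 ± 0.353 CPM), the ephrin receptor EPHA3 (20.1 ± 1.75 against 0.05 ± 0.0707 CPM), FGFR2 (27.6 ± 0.505 against 3.75 ± 0.142 CPM) and TYRO3 (114 ± 3.91 against 21.9 ± 0.709 CPM) were higher in KYSE-410. The TAM kinases AXL and MERTK (1.23 ± 0.153 against 13.6 ± 0.0339 CPM), of the same family as TYRO3, were higher in KYSE-30, as was MST1R (16.8 ± 0.535 against 73.9 ± 2.04 CPM), the receptor of macrophage-stimulating protein.

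Growth factors were divided between the lines. Of 43 tested growth factor genes, 11 were at least 2-fold higher in KYSE-410 and 12 in KYSE-30. Midkine (MDK), a heparin-binding growth factor, had 295, 289 and 298 CPM in KYSE-410 and 12.9 and 7.29 CPM in KYSE-30. NRG4, a ligand of ERBB4, was at 26.8 ± 1.34 against 3.7 ± 0.000707 CPM, and IGFBP4, which binds insulin-like growth factors, at 45.4 ± 1.62 against 4.1 ± 0.141 CPM. In KYSE-30 the EGFR ligand amphiregulin (AREG) had 11.3, 10.3 and 10.9 CPM in KYSE-410 and 96.9 and 109 CPM in KYSE-30, and FGFBP1, which releases fibroblast growth factors from matrix, 4.55, 4.05 and 4.05 CPM in KYSE-410 and 189 and 195 CPM in KYSE-30. GAS6, the ligand of AXL, had 4.9 ± 0.476 against 53.5 ± 0.666 CPM, and PDGFB 3.1 ± 0.05 against 35.5 ± 0.887 CPM. AXL and GAS6 were thus both higher in KYSE-30, as were EGFR and AREG. Other EGFR ligands on the list differed in both directions. EREG (60.9 against 36.9 CPM) and BTC (5.73 against 3.25 CPM) were higher in KYSE-410. TGFA (93.4 against 164.5 CPM) and HBEGF (5.53 against 24.9 CPM) were higher in KYSE-30.

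Cytokine and death receptors differed in both directions. TNFRSF21 (611.9 against 519.2 CPM) and LTBR (262.5 against 210.6 CPM) were abundant in both lines and less than 2-fold apart, while TNFRSF1A (225 against 97.9 CPM) was at least 2-fold higher in KYSE-410 and IL6ST (84.3 against 177.6 CPM) in KYSE-30. TLR4, the lipopolysaccharide receptor, had 39.3, 41.7 and 39.4 CPM in KYSE-410 and 0.2 and 0.1 CPM in KYSE-30, and IL20RA 11.2 against 0.125 CPM. The interleukin 6 receptor (IL6R) had 3.35, 2.95 and 2.5 CPM in KYSE-410 and 52.9 and 58.3 CPM in KYSE-30, and LIFR 13.5 ± 1.24 against 64.6 ± 4.23 CPM. Of 46 tested cytokine and death receptors, 9 were at least 2-fold higher in KYSE-410 and 11 in KYSE-30. Among 59 tested G protein coupled receptors the counts were 15 and 11. NMU, a neuropeptide gene that the list holds beside receptors, had 23 against 0.125 CPM, the Hedgehog transducer SMO 18 against 0.575 CPM, and the atypical chemokine receptor ACKR3 11.1 against 0 CPM. In KYSE-30 the sphingosine phosphate receptor S1PR3 (0.0833 against 16.9 CPM) and the adhesion receptor ADGRF1 (45.6 ± 7.12 against 312 ± 29.2 CPM) were higher.

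TGF-beta and BMP pathway genes leaned to KYSE-410. Of 53 tested members 21 were at least 2-fold higher in KYSE-410 and 9 in KYSE-30, and their median log2 difference was 0.46 (0.38 to 0.55 under other scalings). The inhibitory SMAD6 had 95.2, 94.1 and 97.7 CPM in KYSE-410 and 8.39 and 7.2 CPM in KYSE-30, the BMP target ID1 had 282, 277 and 301 CPM in KYSE-410 and 34.8 and 27 CPM in KYSE-30, and SKIL, a corepressor of SMAD proteins, had 332, 367 and 344 CPM in KYSE-410 and 32.3 and 30.6 CPM in KYSE-30. The activin antagonist FSTL3 (51.5 ± 1.58 against 5.3 ± 1.27 CPM) and the receptor BMPR1B (8.13 ± 0.306 against 0.575 ± 0.106 CPM) were also higher in KYSE-410. BMP7 (0.0167 against 9.99 CPM), SMURF2 (30.6 ± 2.58 against 127 ± 6.44 CPM), a ubiquitin ligase of the pathway, and the receptor TGFBR1 (38 ± 2.62 against 98.7 ± 18.1 CPM) were higher in KYSE-30. SMAD4, the common SMAD, had 39.2, 39.5 and 39.8 CPM in KYSE-410 and 44.2 and 42.9 CPM in KYSE-30 (log2 difference -0.14, SE 0.0549, limma adjusted p = 0.0413).

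In the Wnt pathway 10 and 7 of 35 tested genes were at least 2-fold higher in KYSE-410 and KYSE-30. WNT11 (8.24 against 0.075 CPM), PORCN (28.9 ± 2.38 against 3.02 ± 0.317 CPM), the acyltransferase that Wnt secretion needs, and TCF7 (17.9 ± 0.983 against 4.2 ± 0.495 CPM) were higher in KYSE-410, and WNT7A (1.42 ± 0.104 against 26.9 ± 1.59 CPM) and WNT9A (2.95 ± 0.377 against 15 ± 4.03 CPM) in KYSE-30. In the Notch pathway the counts were 7 and 4 of 25. DTX4 (178 ± 5.35 against 12.8 ± 3.14 CPM) and DTX3 (38.7 against 0.025 CPM), members of the Deltex family of Notch modulators, and the target HES1 (56.7 ± 3.2 against 13.9 ± 1.27 CPM) were higher in KYSE-410. HES2 (1.98 ± 0.382 against 16 ± 3.81 CPM) and the ligand DLL1 (0.6 ± 0.18 against 4.15 ± 0.283 CPM) were higher in KYSE-30. NOTCH1 had 38.7, 41.7 and 42.6 CPM in KYSE-410 and 59.4 and 42.4 CPM in KYSE-30 (log2 difference -0.29, SE 0.116, limma adjusted p = 0.0431).

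Matrix genes differed in both directions, above the background. Of 21 tested collagens, 10 were at least 2-fold higher in KYSE-410 and 6 in KYSE-30, and of 55 tested laminins and glycoproteins 24 and 10. COL4A1 and COL4A2, the chains of the common basement membrane collagen encoded side by side, had 4.1, 4 and 3.15 CPM in KYSE-410 and 112 and 112 CPM in KYSE-30 and 0.75, 0.5 and 0.45 CPM in KYSE-410 and 189.9 and 183 CPM in KYSE-30 (log2 difference -6.91, SE 0.105, limma adjusted p = 1.09e-11). COL12A1, a fibril-associated collagen, had 311, 375 and 338 CPM in KYSE-410 and 18.1 and 14.4 CPM in KYSE-30, and COL28A1 34.3 ± 2.58 against 4.6 ± 0.07 CPM. EDIL3, an integrin-binding matrix protein of vessels, had 205, 227 and 196 CPM in KYSE-410 and 1.55 and 0.75 CPM in KYSE-30. FBN2, a microfibril component, had 114, 123 and 116 CPM in KYSE-410 and 1.3 and 0.65 CPM in KYSE-30, and nidogen (NID1), which links laminin to collagen IV, 66.4 ± 5.69 against 0.55 ± 0 CPM. The laminin chain LAMA4 and the proteoglycan LUM were silent in KYSE-30, as described above. In KYSE-30 the lysyl oxidase LOXL2 (10.9 ± 1.62 against 77.2 ± 0.113 CPM), CYR61 (67.2 ± 7.49 against 347 ± 52.8 CPM), a matricellular target of YAP, and tenascin C (TNC, 13.6 against 53.1 CPM) were higher. The median log2 difference of the laminin and glycoprotein list was 0.80, and 0.73 to 0.88 under the other scalings.

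Integrins differed less. None of 18 tested was at least 2-fold higher in KYSE-410. Limma called 5 as higher in KYSE-410 and 9 in KYSE-30, where the shares of all tested genes were 38.5% and 39.9%. Of the 9, 3 were at least 2-fold higher: ITGA5 (27.4 ± 2.2 against 106 ± 8.45 CPM), ITGB4 (242 ± 6.64 against 868 ± 54.4 CPM) and ITGA6 (343 ± 12.6 against 727 ± 21.8 CPM). ITGB4 stood at 247, 244 and 234 CPM in KYSE-410 and 906 and 829 CPM in KYSE-30 (log2 difference -1.84, SE 0.0518, limma adjusted p = 5e-10).

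Proteases and their inhibitors were 20 and 12 of 51 at 2-fold or more. SLPI, a secreted inhibitor of neutrophil elastase, had 147, 148 and 161 CPM in KYSE-410 and 1.15 and 0.899 CPM in KYSE-30. The aggrecanase-family genes ADAMTS12 (28.5 ± 1.73 against 0.2 ± 0 CPM) and ADAMTS1 (45.5 ± 5.31 against 1.22 ± 0.46 CPM), ADAM23 (37.9 ± 0.405 against 1.62 ± 0.318 CPM) and SERPINB2 (15.1 against 0.1 CPM), an inhibitor of urokinase, were higher in KYSE-410. Urokinase itself (PLAU) had 45.1, 39.9 and 39.3 CPM in KYSE-410 and 606 and 677 CPM in KYSE-30 (log2 difference -3.92, SE 0.0704, limma adjusted p = 3.06e-11), and the cathepsin CTSV 37.5 ± 0.785 against 224 ± 14.5 CPM. ADAM12 (5.7 ± 0.655 against 37.5 ± 3.15 CPM) and TMPRSS11E (0.866 ± 0.201 against 18 ± 3.11 CPM) were also higher in KYSE-30. Urokinase was thus higher in the line in which its inhibitor SERPINB2 was lower.

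NRF2 targets and redox enzymes leaned to KYSE-410. Of 51 listed, 50 were tested; 23 were at least 2-fold higher in KYSE-410 and 4 in KYSE-30, with a median log2 difference of 0.85 (0.77 to 0.94 under the other scalings). The aldo-keto reductase AKR1C2 had 1251, 1233 and 1349.5 CPM in KYSE-410 and 0 and 0.2 CPM in KYSE-30 (log2 difference 10.19, SE 0.0775, limma adjusted p = 2.05e-13), AKR1C1 had 172, 165 and 177 CPM in KYSE-410 and 0.15 and 0.2 CPM in KYSE-30, and AKR1B1 had 591, 547 and 584 CPM in KYSE-410 and 1.6 and 2.1 CPM in KYSE-30. The AKR1C genes are near-identical in sequence, so the split of reads among them is uncertain. GPX2, a glutathione peroxidase of the gut, had 257, 248 and 264 CPM in KYSE-410 and 1.5 and 0.899 CPM in KYSE-30, and NQO1, a quinone reductase used as a readout of NRF2, 724, 699 and 724 CPM in KYSE-410 and 228 and 219.7 CPM in KYSE-30 (log2 difference 1.67, SE 0.0447, limma adjusted p = 3.63e-10). NFE2L2, which encodes NRF2, had 166, 166 and 164 CPM in KYSE-410 and 103 and 109 CPM in KYSE-30 (log2 difference 0.64, SE 0.0466, limma adjusted p = 5.48e-07), and its inhibitor KEAP1 had 88.1, 86 and 84.1 CPM in KYSE-410 and 94 and 91.4 CPM in KYSE-30 and did not pass the test (log2 difference -0.11, SE 0.0485, limma adjusted p = 0.0679). Some genes of the same list lay far on the other side: the microsomal glutathione transferase MGST1 had 0.6, 1.1 and 0.8 CPM in KYSE-410 and 128 and 124 CPM in KYSE-30, and ABCC2, an exporter of glutathione conjugates, had 0.7, 1.15 and 1.1 CPM in KYSE-410 and 113 and 114 CPM in KYSE-30. GSS, glutathione synthetase, was at 63.1 ± 1.58 against 137 ± 1.22 CPM.

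The promoter windows were searched for TGACNNNGC, the core of the antioxidant response element that NRF2 binds, on both strands. It was found in 4 of the 18 windows held for list members at least 2-fold higher in KYSE-410 (22.2%), in 7 of 37 for the list (18.9%), and in 1584 of 10698 for all protein-coding genes tested (14.8%). The matches are printed below from the strand of the gene, 5′ to 3′ and with the match in capitals, to show where in these windows the element occurs. The windows are those of PGD (chr1:10398814-10399113), ME1 (chr6:83431002-83431301), GPX2 (chr14:64942696-64942995) and PIR (chrX:15493284-15493583) in GRCh38.p14.
PGD: ccgggGCAATGTCAtctag
ME1 first: tgccaTGACTCAGCgcttc
ME1 second: agtcaGCACCGTCAcccca
GPX2: tttttGCTAAGTCAtcctg
PIR: gaagcGCTGAGTCAcggtg
ME1 carries a match on each strand, and the others carry it on the strand opposite to the gene. A match is a description of these letters only, and these 4 genes were picked by the match.

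Xenobiotic and retinoid enzymes had the same lean, with 23 and 8 of 54 tested genes at 2-fold or more. ALDH3A1, an aldehyde dehydrogenase of cornea, had 328, 328 and 356 CPM in KYSE-410 and 4.1 and 2.75 CPM in KYSE-30. UGT1A10, UGT1A1 and UGT1A6, at 459 against 10.2 CPM, 403 against 10.4 CPM and 426 against 11.6 CPM, share their last exons with the rest of the UGT1A cluster and are best read as a single locus. UGT8, which makes galactosylceramide, had 39.4 against 0.1 CPM. GSTP1, the main glutathione transferase of squamous epithelium, had 5.8, 7.2 and 4.85 CPM in KYSE-410 and 425 and 369.9 CPM in KYSE-30 (log2 difference -5.85, SE 0.123, limma adjusted p = 8.15e-11), and ALDH7A1 0.1, 0 and 0 CPM in KYSE-410 and 23.7 and 20.7 CPM in KYSE-30. SULT2B1, a sterol sulfotransferase of differentiated keratinocytes, had 3.35 ± 0.687 against 22.4 ± 1.83 CPM. Of the other glutathione transferases, GSTM3 (25.9 against 2.05 CPM) and GSTO2 (22.1 against 0.4 CPM) were higher in KYSE-410, and MGST2 (27.6 against 25.4 CPM) did not pass the test.

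**Figure D3:**
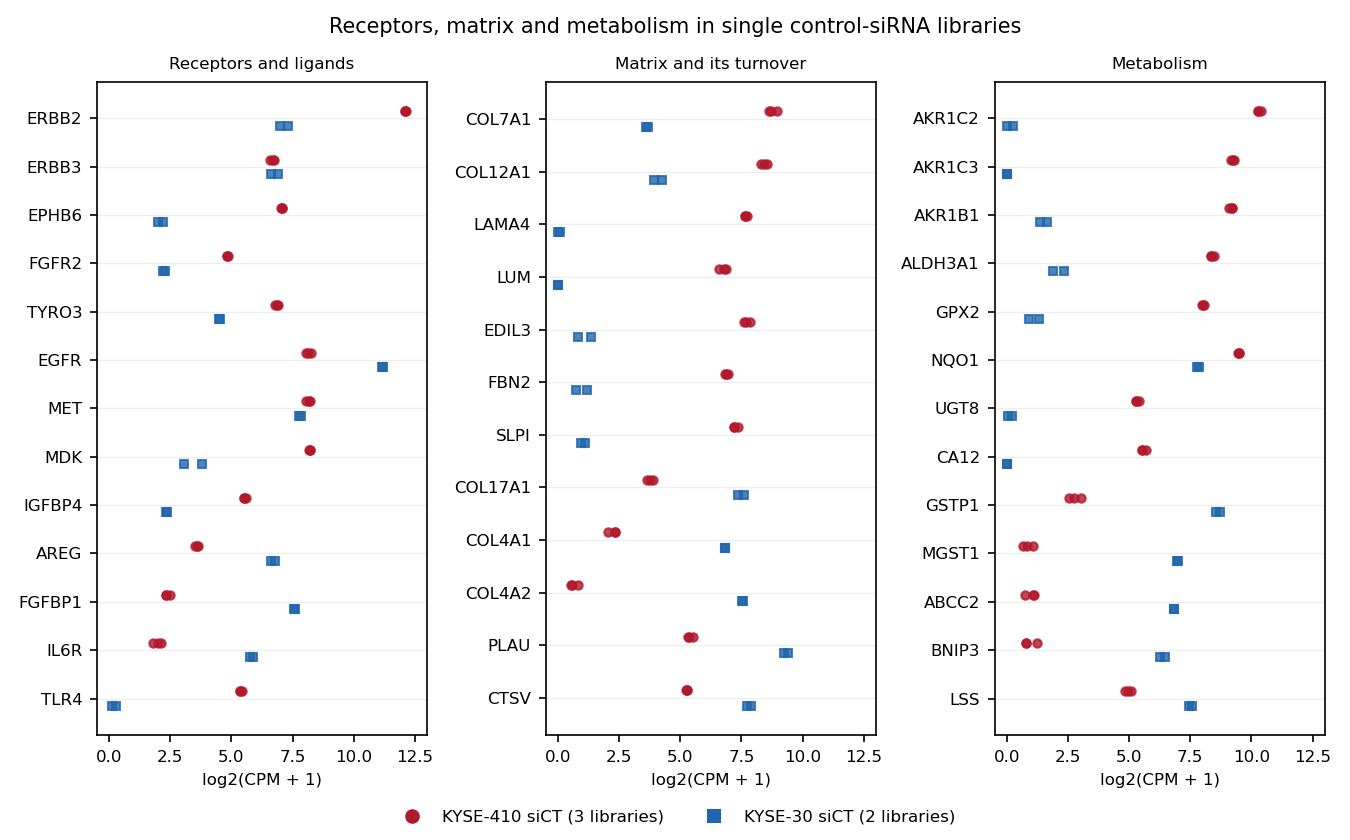
Level of receptors and ligands, matrix genes and metabolic enzymes as log2(CPM + 1) in each siCT library (circles, 3 of KYSE-410; squares, 2 of KYSE-30). ERBB2 and EGFR lie on opposite sides, ERBB3 overlaps, and AKR1C3, LUM and CA12 are at 0 in both KYSE-30 libraries.

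Of 52 tested glycolysis and hypoxia genes, 13 were at least 2-fold higher in KYSE-30 and 7 in KYSE-410, with a median log2 difference of -0.12 (-0.20 to -0.04 under the other scalings). BNIP3, a hypoxia-induced mitophagy receptor, had 0.75, 0.75 and 1.35 CPM in KYSE-410 and 76 and 87.4 CPM in KYSE-30 (log2 difference -5.42, SE 0.142, limma adjusted p = 3.18e-10). The lactate transporters SLC16A1 (53.6 ± 1.75 against 283 ± 0.981 CPM) and SLC16A3 (76 ± 0.984 against 381 ± 32.3 CPM) and the secreted lipase inhibitor ANGPTL4 (0.0833 against 10.6 CPM) were higher in KYSE-30. The carbonic anhydrases CA12 (47.2 against 0 CPM) and CA2 (32.9 ± 1.45 against 3.37 ± 0.247 CPM), PDK3 (16.1 ± 0.949 against 2.02 ± 0.459 CPM), a brake on pyruvate oxidation, and the aldolase ALDOC (19.8 ± 1.75 against 5.05 ± 1.2 CPM) were higher in KYSE-410. GAPDH had 2634, 2456 and 2584 CPM in KYSE-410 and 2617 and 2339 CPM in KYSE-30 and did not pass the test (log2 difference 0.05, SE 0.0615, limma adjusted p = 0.493), and its sign turned with upper quartile scaling (-0.04). The glycolytic enzymes TPI1 (796.7 against 814.4 CPM) and PGK1 (487 against 516 CPM) did not pass the test either, and PKM (2561 against 1680.1 CPM) was higher in KYSE-410 by less than 2-fold.

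In lipid metabolism 20 and 10 of 71 tested genes were at least 2-fold apart. DGAT2, which makes triglyceride, had 59.6 ± 3.97 against 2.32 ± 0.247 CPM, the fatty acid binding proteins FABP5 (63.2 ± 2.23 against 13.5 ± 2.69 CPM) and FABP4 (5.18 against 0 CPM) were higher in KYSE-410, and so was PPARGC1A (9.71 against 0 CPM), a coactivator of mitochondrial genes. Cholesterol synthesis enzymes differed in both directions, with lanosterol synthase (LSS) at 27.7, 30 and 32.6 CPM in KYSE-410 and 191 and 176 CPM in KYSE-30 and DHCR7 at 119 ± 2.65 against 484 ± 12.7 CPM, but SC5D (71.7 against 28.4 CPM) higher in KYSE-410. The lipid regulator SREBF1 had 65.4 ± 3.1 against 143 ± 21.5 CPM, and lies in a stretch of chromosome 17 described below in which neighbouring genes were also higher in KYSE-30. Amino acid genes differed less, with 6 and 5 of 54, close to the background. KYNU, of tryptophan breakdown, had 47.5 against 0.5 CPM, and the transporters SLC6A15 (21.2 against 0 CPM) and SLC7A2 (28.6 ± 3.06 against 0.725 ± 0.247 CPM) were higher in KYSE-410. PSPH, of serine synthesis (33 ± 0.851 against 142 ± 1.65 CPM), and SHMT1, of one-carbon metabolism (54.8 ± 1.22 against 223 ± 15.6 CPM), were higher in KYSE-30. Subunits of the respiratory chain differed by little. Limma called 16 of 39 as higher in KYSE-410 and 17 as higher in KYSE-30, near the 38.5% and 39.9% of all tested genes. Of these, 1 was at 2-fold (UQCRFS1, 60.8 ± 1.93 against 125 ± 6.24 CPM), below the background.

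Interferon-stimulated genes differed by subset. Of 42 tested, 11 were at least 2-fold higher in KYSE-410 and 4 in KYSE-30. BST2 (tetherin) had 106, 98.1 and 107 CPM in KYSE-410 and 0.1 and 0.2 CPM in KYSE-30, MX2 had 90.1, 87.1 and 87.9 CPM in KYSE-410 and 0 and 0.05 CPM in KYSE-30, IFI44L had 26.5, 23.9 and 24.8 CPM in KYSE-410 and 0.1 and 0.1 CPM in KYSE-30, and GBP1 31.2 against 0.674 CPM. TMEM173, which encodes the DNA-sensing adaptor STING, had 12.3, 11.7 and 11.3 CPM in KYSE-410 and 83.4 and 78.8 CPM in KYSE-30, and IFIT2 8.64 ± 0.409 against 26.8 ± 1.13 CPM. Of 25 tested antigen presentation genes 1 (PSMB8, 29.8 ± 0.557 against 10.1 ± 0.352 CPM) and 4 were at 2-fold or more, among them MICB, a ligand of natural killer cells (1.27 against 59.4 CPM), and HLA-B (76.1 ± 2.48 against 201 ± 1.85 CPM). Of the cytokine and NF-kappaB genes 7 and 11 of 37 were at 2-fold or more. IL1B (14.9 ± 0.678 against 0.475 ± 0.0354 CPM) and CCL28 (12.9 ± 0.686 against 0.5 ± 0.0707 CPM) were higher in KYSE-410, and IL32 (0.05 against 10 CPM), TNFSF15 (6.96 ± 0.75 against 44.1 ± 3.85 CPM), TNFAIP3 (2.02 ± 0.115 against 14.5 ± 1.77 CPM) and RELB (4.63 ± 0.189 against 19.3 ± 3.32 CPM), both of the NF-kappaB pathway, in KYSE-30.

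Proliferation genes were mostly less than 2-fold apart, with more of them higher in KYSE-30. None of 34 tested G1/S genes and none of 35 G2/M genes was at least 2-fold higher in KYSE-410. Limma called 10 and 9 as higher there, against 38.5% of all tested genes. In KYSE-30 limma called 18 and 24 as higher, against 39.9% of all tested genes. Of these, 3 (8.82% of the list) and 5 (14.3%) were at least 2-fold higher, near the 11.2% of all tested genes. Among them were CDC25B (69.8 ± 3.13 against 185 ± 1.22 CPM) and KIF2C (110.2 ± 1.38 against 268 ± 13.8 CPM). The median log2 difference was -0.17 and -0.37. CCND1 had 649.8, 633 and 605 CPM in KYSE-410 and 435 and 466 CPM in KYSE-30 (log2 difference 0.48, SE 0.0513, limma adjusted p = 1e-05), and CDKN2A, the inhibitor of its kinases, had 47.8, 46.1 and 50.1 CPM in KYSE-410 and 12.7 and 13.2 CPM in KYSE-30 (log2 difference 1.81, SE 0.0656, limma adjusted p = 2.87e-09). MYC had 104, 102 and 102 CPM in KYSE-410 and 71.1 and 87.4 CPM in KYSE-30. CDKN2B stood at 43.4, 47.9 and 49.4 CPM in KYSE-410 and 52.8 and 48.8 CPM in KYSE-30 and did not pass the test (log2 difference -0.11, SE 0.0688, limma adjusted p = 0.15). TP73, a relative of TP63, had 0, 0 and 0.05 CPM in KYSE-410 and 11.4 and 10.5 CPM in KYSE-30.

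In the PI3K pathway 7 of 46 tested genes were at 2-fold or more in each direction, near the background. SGK1, a kinase related to AKT, had 1.15, 1.5 and 1.6 CPM in KYSE-410 and 54.9 and 63 CPM in KYSE-30, and TSC1, a brake on mTOR, 38.2 ± 2.16 against 113 ± 4.02 CPM. PLCG1 (160.3 ± 1.73 against 29 ± 2.16 CPM) and IRS1 (80.3 ± 3.48 against 21.5 ± 0.987 CPM) were higher in KYSE-410, where IRS2 was lower (11 ± 1.48 against 31.2 ± 0.81 CPM). PIK3CA had 45.3, 49.2 and 50.5 CPM in KYSE-410 and 73.3 and 74.5 CPM in KYSE-30 (log2 difference -0.60, SE 0.0599, limma adjusted p = 5.78e-06).

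Developmental regulators leaned to KYSE-410. Of 39 HOX genes 30 were tested; 12 were at least 2-fold higher in KYSE-410 and 2 in KYSE-30, and their levels were low. HOXA7 had 23.2, 23.3 and 22.1 CPM in KYSE-410 and 2.5 and 2.05 CPM in KYSE-30, HOXD10 9.19 against 0 CPM and HOXA13 7.65 ± 0.754 against 0.999 ± 0.141 CPM, while HOXB6 (0.133 against 3.95 CPM) and HOXB5 (0.0167 against 1.87 CPM) were higher in KYSE-30. Where 10 CPM in 2 libraries was required, 3 were counted as higher in KYSE-410. Of 57 other lineage factors tested, 23 and 10 were at 2-fold or more. SOX4 (139.6 ± 6.96 against 11.3 ± 0.67 CPM) and FOXQ1 (65.6 ± 2.5 against 2.05 ± 0.141 CPM) were higher in KYSE-410, and LMX1B (0 against 19.8 CPM), ISL1 (0.117 against 10.9 CPM), EYA4 (4.01 ± 0.104 against 36.8 ± 0.534 CPM) and the oestrogen receptor ESR1 (0.517 ± 0.208 against 9.19 ± 2.54 CPM) in KYSE-30. Among chromatin regulators 4 and 2 of 35 were at 2-fold or more. In both directions together this was 17.1%, below the 24.0% of all tested genes. SMARCA2, one of the ATPases of the SWI/SNF remodelling complex, had 38.3, 40.2 and 36.4 CPM in KYSE-410 and 0 and 0 CPM in KYSE-30, and the histone demethylase KDM6A had 54, 59 and 55.6 CPM in KYSE-410 and 15.6 and 16.4 CPM in KYSE-30.

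Imprinted and germline genes differed in both directions. PEG10, a retrotransposon-derived gene expressed from the paternal copy, had 8.64, 9.49 and 9.29 CPM in KYSE-410 and 945 and 917 CPM in KYSE-30 (log2 difference -6.52, SE 0.0565, limma adjusted p = 3.76e-13). GRB10, an adaptor that restrains insulin signalling, had 46, 44.2 and 43.3 CPM in KYSE-410 and 0.1 and 0.2 CPM in KYSE-30, and KCNQ1OT1, a long antisense transcript, 6.68 against 0.05 CPM. SNRPN was silent in KYSE-30, and IGF2 (4.55 ± 0.444 against 29.1 ± 0.0325 CPM) and MEST (18.1 ± 0.749 against 98.8 ± 7.92 CPM) were higher there. Of 21 tested imprinted genes 5 and 7 were at 2-fold or more. Of 54 cancer-testis genes 31 were at the floor in all 5 libraries and 22 were tested, 6 and 4 of them at 2-fold or more. MAGEA12 (60 against 0.974 CPM) and DDX43 (20.1 against 0.125 CPM) were higher in KYSE-410, and MAGEA6 (44 against 120.1 CPM), MAGEB2 and LIN28B (0.483 against 22.3 CPM) in KYSE-30. The MAGEA genes are close copies, and reads may be split among them.

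**Figure D4:**
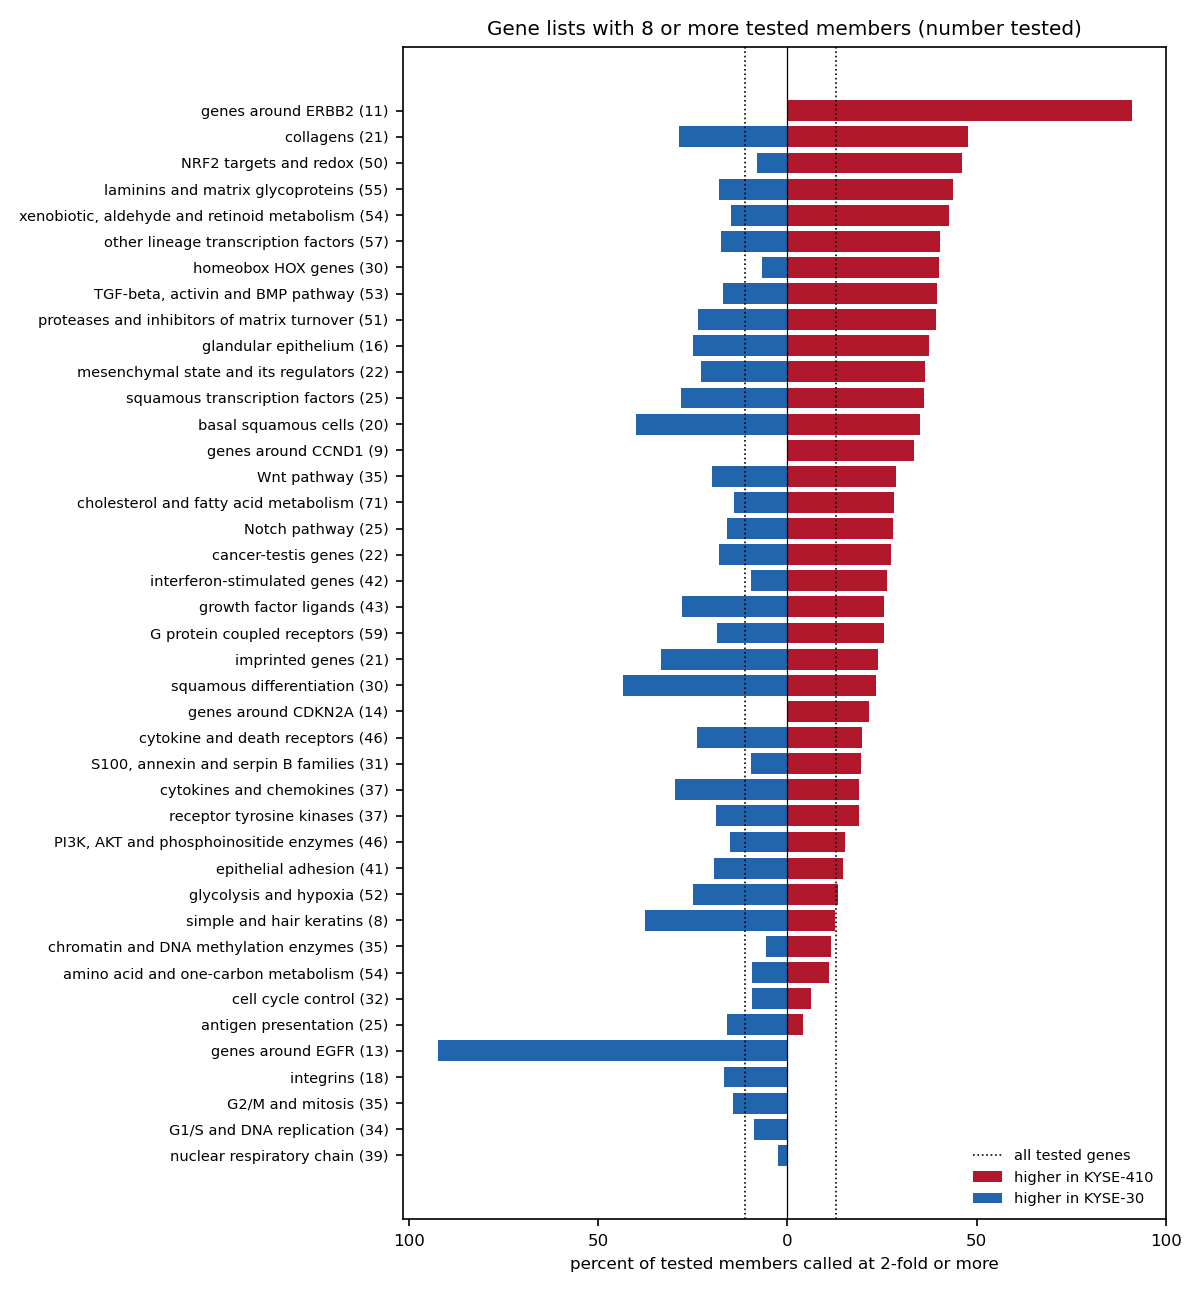
Share of the tested members of gene lists that limma called at 2-fold or more, to the right when higher in KYSE-410 and to the left when higher in KYSE-30; the number tested is in brackets and the dotted lines mark all tested genes (12.7% and 11.2%). The genes around ERBB2 (10 of 11) and around EGFR (12 of 13) lie furthest out, and the respiratory chain (1 of 39) stays below the background. Both receptor lists count the receptor itself and were chosen with earlier results known.

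Differences were grouped along chromosomes. By chromosome, the median log2 difference of protein-coding genes ran from -0.45 on chromosome 9 to 0.45 on chromosome 3. Over 20 consecutive tested genes, the 3 highest and the 3 lowest medians that did not overlap were located. On chromosome 17 the block from AC005726.2 to PHF12 (chr17:28455752-28951771) had a median of 2.54, with 15 of 20 genes at least 2-fold higher in KYSE-410. It holds SUPT6H, a transcription elongation factor (1333 ± 25.8 against 234 ± 8.89 CPM), TRAF4 (940.3 ± 38.4 against 136 ± 0.0841 CPM), a signalling adaptor, FLOT2 (484 ± 9.77 against 65.5 ± 4.16 CPM) and PHF12 (432 ± 12.3 against 45.3 ± 0.561 CPM). On chromosome 11 the block from CNTN5 to CARD17 (chr11:99020953-105101431) had a median of 2.47, with 14 higher in KYSE-410. It holds YAP1, the Hippo pathway coactivator, with 710.5, 768 and 721 CPM in KYSE-410 and 135 and 123 CPM in KYSE-30, BIRC2, an inhibitor of apoptosis (301 ± 2.16 against 46.5 ± 2.3 CPM), and TMEM123 (1312 ± 25 against 99.4 ± 0.379 CPM). BIRC3, next to BIRC2, went the other way (9.86 ± 0.562 against 30.1 ± 4.98 CPM). On chromosome 2 the block from INPP5D to ACKR3 (chr2:233059967-236582358) had a median of 2.72, which came from 9 UGT1A genes that share exons, while AGAP1 (35.7 ± 2.57 against 109.9 ± 4.3 CPM) was higher in KYSE-30.

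Among the lowest blocks, the one from WDR55 to PCDHAC2 on chromosome 5 (chr5:140664676-141012347, median -4.30) holds 15 protocadherin alpha genes. They stood at 22.1 to 32.9 CPM in KYSE-30 and at no more than 0.283 CPM in KYSE-410. They share constant exons, so the 15 readings are close to a single one. On chromosome 17 the block from CCDC144A to FLII (chr17:16689537-18258916) had a median of -1.91, with 19 of 20 genes at least 2-fold higher in KYSE-30. It includes MPRIP (390.2 ± 5.62 against 1203 ± 12.2 CPM), the actin remodeller FLII (202 ± 1.93 against 796 ± 21.9 CPM), folliculin (FLCN, 29.7 ± 1.8 against 125 ± 1.07 CPM) and SREBF1. The third, from HUS1 to NUPR2 on chromosome 7 (chr7:47963288-56116400), had a median of -1.79 and contains EGFR. Its distant end does not follow, since GRB10 and COBL (9.66 ± 0.617 against 0.725 ± 0.105 CPM) were higher in KYSE-410, and over 40 genes around the same centre the median was 0.06. In the siSHIP2 libraries the medians of these 6 blocks kept their signs, the lowest being -3.87 and the highest 2.72.

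EGFR lay inside the block from HUS1 to NUPR2, and ERBB2 lay outside all of these blocks, beside neighbours that were also higher in KYSE-410. The lists of genes around ERBB2 and EGFR count the receptor itself and were chosen with earlier results known. Of 11 tested genes on the ERBB2 list, 10 were at least 2-fold higher in KYSE-410, and the median log2 difference of the list was 3.40. PGAP3 had 709, 753 and 817 CPM in KYSE-410 and 12.7 and 10.5 CPM in KYSE-30, STARD3, a cholesterol carrier, 1239.9, 1205 and 1256 CPM in KYSE-410 and 53.8 and 53.1 CPM in KYSE-30, the adaptor GRB7 508, 533 and 576 CPM in KYSE-410 and 37.1 and 31.5 CPM in KYSE-30, and MIEN1 806, 763 and 819 CPM in KYSE-410 and 34 and 30 CPM in KYSE-30. Of 13 tested genes on the EGFR list, EGFR included, 12 were at least 2-fold higher in KYSE-30, with a median of -2.06. LANCL2 had 33.2, 32.3 and 30.2 CPM in KYSE-410 and 156 and 169 CPM in KYSE-30, VOPP1 94.8, 100.1 and 92.4 CPM in KYSE-410 and 424 and 412 CPM in KYSE-30, and CCT6A, a chaperonin subunit, 494, 482 and 479 CPM in KYSE-410 and 1469.8 and 1475 CPM in KYSE-30. Around CCND1 it was 3 of 9, all in KYSE-410, with MYEOV (399.5 ± 11.7 against 30 ± 4.07 CPM) and SHANK2 (169 ± 7 against 48.2 ± 0.0403 CPM), and around CDKN2A 3 of 14. The difference at ERBB2 was narrow, and that at EGFR ran through all genes tested within about 1 Mb downstream. DNA copy number was not measured.

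**Figure D5:**
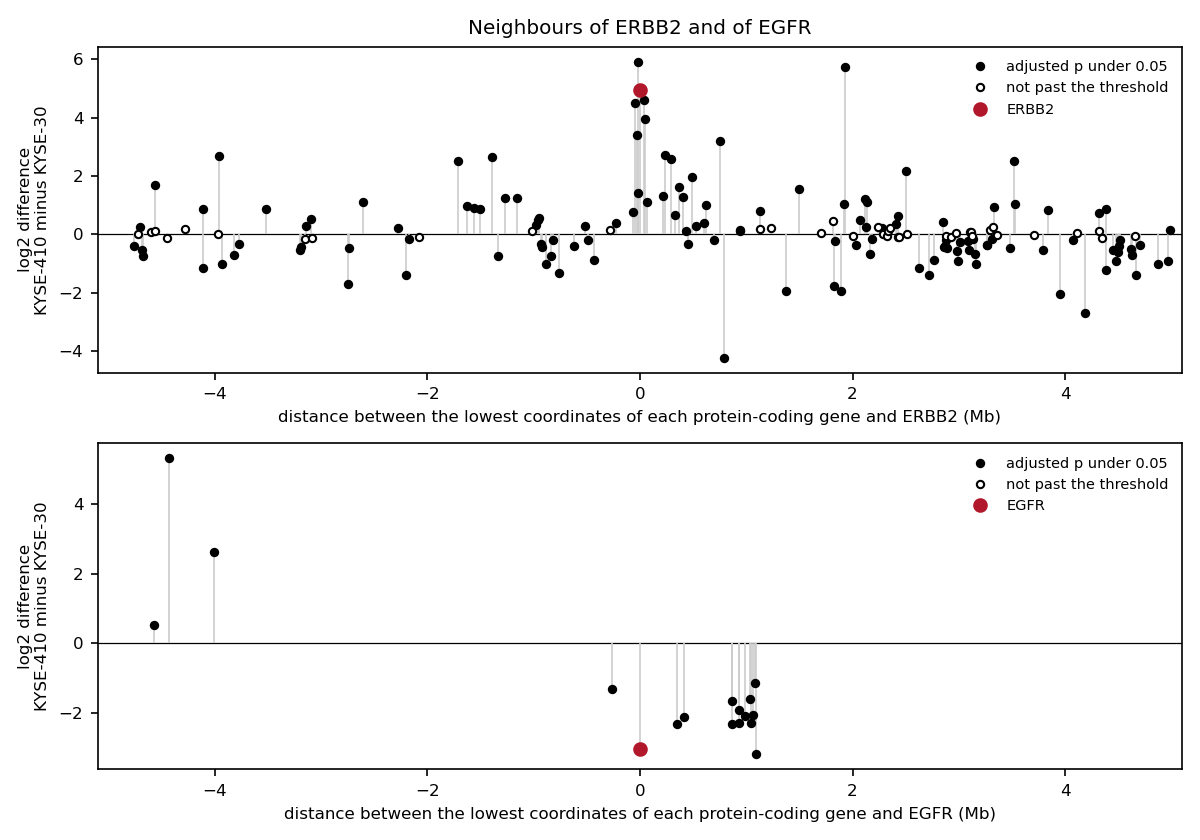
Log2 difference of each tested protein-coding gene (y axis) against the distance of its lowest coordinate from that of ERBB2 (top) or EGFR (bottom) in Mb; filled points passed the test and the red point is the receptor. Genes next to ERBB2 reach 5.91 (PGAP3) while most within the 5 Mb shown lie near 0, and every gene from SEC61G to NUPR2 beside EGFR lies below 0.

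Called genes were also ranked by size of the difference, given at least 50 CPM in the higher line, a gene symbol and libraries apart. Of these, DIO2 and AKR1C2 were the furthest apart. DIO2, which activates thyroid hormone, had 1345, 1392 and 1278 CPM in KYSE-410 and 0.2 and 0.1 CPM in KYSE-30 (log2 difference 10.19, SE 0.0592, limma adjusted p = 4.58e-14). PADI3, a peptidylarginine deiminase of hair follicles and skin, had 3.1, 3.9 and 4.1 CPM in KYSE-410 and 682 and 561 CPM in KYSE-30 (log2 difference -7.05, SE 0.107, limma adjusted p = 1.09e-11). S100P, a calcium-binding protein of many carcinomas, had 249.8, 247 and 269.6 CPM in KYSE-410 and 1.5 and 2.25 CPM in KYSE-30, and S100A2, a squamous relative, 189.7 ± 11.2 against 19.6 ± 1.8 CPM. COL4A2, PEG10, MGST1, ABCC2 and GSTP1, described above, were also among the 12 largest differences toward KYSE-30. Libraries that did not overlap between the lines were a condition of this ranking, and 83.8% of all tested genes met it.

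The same difference was seen with siSHIP2. In those 5 libraries limma called 15142 genes (77.6% of those tested). Of the 4680 genes at 2-fold or more with siCT, 4655 had the same sign with siSHIP2 (99.5%) and 3818 were again at least 2-fold apart in that direction. Of all 15301 called genes 92.1% had the same sign, and Pearson's r across the 19518 genes was 0.941, where genes are not independent replicates. ERBB2 had a log2 difference of 5.06 and EGFR of -3.83 with siSHIP2, AKR1C2 of 9.77, KRT7 of 5.18, VIM of -3.84 and DIO2 of 10.29. KRT5 (1.79 with siSHIP2, 3.59 with siCT) and INPPL1 (0.73 against 1.48) were among those with a smaller difference; the change itself was not tested.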

How the data were processed

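RNA of 10 samples was made into Ovation Solo libraries, per the labels' protocols. The submitters' processing notes name STAR 2.5.3a, HTSeq and the hg38 build; the annotation, strand setting and treatment of shared reads are not given in the sources used here. The authors deposited CPM for 58302 genes. In every library the values are whole multiples of about 0.05 CPM, summing to about 20 M, so they appear to be counts scaled to a common total and rounded, which no source states. Read totals estimated from them were 18.5 M to 25.8 M in the siCT libraries, with 26636 to 28155 genes above 0. The plan had count tests as alternatives, which such numbers do not allow.

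Log2(CPM + 1) was fitted with limma 3.58.1 (R 4.3.3, trend) over the 5 siCT libraries with a mean per line; p-values were adjusted by Benjamini-Hochberg at 0.05. Positions are from GENCODE 29 (GRCh38; 58039 identifiers matched), promoter windows from RefSeq (GRCh38.p14). The filter at 0.5 CPM in 2 libraries removes genes low in both lines, so a listed gene may be tested only through its higher line. The procedure was tested on simulated data. Members and the 47 gene lists were chosen with earlier results of these data known. Named are 34 fixed genes; the 12 per direction with the largest difference (at least 50 CPM, libraries apart, gene symbol); the 12 most abundant on or off genes; up to 5 called members per list and direction; and the genes of 6 blocks. Some genes that this rule names are not reported here. AGR2, BTC, EREG, EVPL, GSTM3, GSTO2, HBEGF, IL6ST, KLK6, KRT10, KRT13, KRT15, KRT16, KRT19, KRT6A, LTBR, ME1, MGST2, PGD, PGK1, PIR, PKM, PPL, SC5D, SNAI2, TGFA, TNFRSF1A, TNFRSF21, TPI1 and VIL1 fell outside this rule and were named after their values were seen. Alternatives were other filters, pseudocount, scalings (TMM, RLE, upper quartile), all 10 libraries, the replicate block, a 1.5-fold test and leaving out each library. Python 3.11.15, numpy 2.4.6, pandas 2.3.3 and matplotlib 3.10.9 did the rest.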

Additional observations from a re-analysis of the deposited data

Results flagged for a closer look

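For 3 named genes the lines differed in opposite directions with siCT and with siSHIP2, with no overlap between the libraries of the lines in either. The change of the line difference was not tested. TP53INP1, a stress-induced autophagy gene, had 2.9, 3.1 and 2.85 CPM in KYSE-410 and 8.54 and 5.8 CPM in KYSE-30 with siCT (log2 difference -1.03) and 19.8, 24.7 and 20.7 CPM in KYSE-410 and 3.4 and 5.65 CPM in KYSE-30 with siSHIP2 (2.07). MET had 289.5, 296 and 264 CPM in KYSE-410 and 216 and 232 CPM in KYSE-30 with siCT (0.34) and 173, 123 and 132 CPM in KYSE-410 and 207 and 217 CPM in KYSE-30 with siSHIP2 (-0.58). SMAD4 went from -0.14 to 0.38. Apart from TP53INP1, the differences with siCT were under 2-fold. Groups of 3 and 2 libraries are too small to look for single outlying samples.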

How the results depend on the processing

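With 2 and 3 libraries a group, small differences rest on a spread estimated with few degrees of freedom, and genes near 0.15 CPM cannot be told from absent. The planned count tests were not run, because the whole numbers are scaled and rounded counts rather than reads. Main counts were 15301 called genes (7516 higher in KYSE-410, 7785 in KYSE-30). Requiring 10 CPM in 2 libraries left 9900 (4883 higher in KYSE-30) and, at 2-fold or more, 1542 and 1287; fewer genes were tested. A test against a fold change of 1.5 called 6208 (3229 and 2979). Leaving out single libraries gave 13889 to 14641 calls. The other scalings gave 15256 to 15381 and moved the median of all genes by at most 0.07 (log2); the median of 10 of 47 lists changed sign with a scaling, each with a median of -0.05 to 0.06.

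Genes on only in KYSE-410 numbered 96 with a floor of 0 counts, 279 with 10, 452 with a minimum of 1 CPM and 95 with 10 CPM; on only in KYSE-30 they numbered 40, 169, 302 and 60. Of 7410 values of the named genes under alternatives, 7282 kept their direction and their side of the threshold, 118 lost the call, 6 gained one and 4 turned sign. Those 4 were ERBB3 with TMM scaling (0.00) and without KYSE-30 siCT replicate 1 (0.06), and GAPDH with upper quartile scaling (-0.04) and without KYSE-30 siCT replicate 2 (-0.03). ERBB3 without KYSE-30 siCT replicate 2 (-0.23) and GAPDH without replicate 1 (0.13) kept their sign. The block from HUS1 to NUPR2 turned to 0.06 over 40 genes. Of 1222 list counts 35 moved by over 1.5 times, most with the 10 CPM filter.

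The replicate 1 minus replicate 2 differences of the lines were not positively correlated (r = -0.099 over 19518 genes). With a single such difference per line, this cannot show whether the numbers stand for shared batches. With the replicate block 14587 genes were called.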

Other observations

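Gene families seen among the on and off genes were counted after those genes were known. Of 420 tested zinc finger genes named ZNF, 81 (19.3%) were at least 2-fold higher in KYSE-410 and 40 (9.52%) in KYSE-30, with a median log2 difference of 0.37. Of 15 tested protocadherin beta genes 13 were at least 2-fold higher in KYSE-410, and 9 were at the floor in KYSE-30. They summed to 179 CPM in KYSE-410 and 2.77 CPM in KYSE-30. In the adjoining protocadherin alpha genes all 15 tested were at least 2-fold higher in KYSE-30 (369.6 against 2.95 CPM summed), and none of 22 protocadherin gamma genes was 2-fold apart. Alpha genes share constant exons with each other, and so do gamma genes. Counts within each of these clusters therefore overlap, and the alpha sum may hold the same reads several times.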
